A study of Mus musculus with 2 samples.

Results

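The genes described here serve fatty acid beta-oxidation and ketone body metabolism in mouse liver. They were 35 genes chosen by symbol for their part in fatty acid uptake and activation, the carnitine shuttle, mitochondrial and peroxisomal beta-oxidation, or ketone body formation. The choice was made with earlier results of these data known. All 35 were found among the 15348 genes of the deposited expression table. By place and role, 17 act in mitochondrial import and oxidation of acyl groups, 9 in peroxisomes, and 9 in neither, in both, or in a linked pathway. The last group, called neither or both, also holds Bdh1 and Pdk4, which are mitochondrial enzymes outside acyl oxidation.

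Beta-oxidation shortens an acyl chain bound to coenzyme A in repeated cycles of dehydrogenation, hydration, a second dehydrogenation and thiolytic cleavage. Mitochondria take up most fatty acids through the carnitine shuttle and pass the electrons on to the respiratory chain. Peroxisomes shorten very long, branched and dicarboxylic chains, and their first step passes electrons to oxygen. In fasting, liver turns the acetyl-CoA into ketone bodies, and the nuclear receptor PPAR-alpha is known to drive many genes of both organelles.

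The series compared livers of female NOG-TKm30 mice, which are immunodeficient NOG mice with a herpes simplex virus thymidine kinase mutant (HSVtk mutant clone 30) whose cDNA is driven by the enhancer and promoter of mouse transthyretin, a gene of hepatocytes. Both groups carried the transgene and were labelled 16 weeks old. The OTD group received ortho-toluidine, an aromatic amine, at 0.6% for 1 week and at 0.3% for a further 3 weeks, and the control group received 0% over the same 4 weeks. RNA of 3 control mice made up 1 library and RNA of 5 OTD mice the other, so each group had 1 library, no value has a replicate check and no p-value can be given. One protocol field of the labels calls the mice C57BL, against the strain label. The headings of both columns used hold the word Wild, while the sample titles name NOG-TKm30 mice. The control library held 13569189 reads over the listed genes and the OTD library 14685193. Levels are counts per unit of library size (CPM) divided by a library scaling factor, called scaled CPM.

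Lower levels in the OTD pool ran through the whole list: all 35 genes had a ratio of OTD over control below 1 as deposited, by 3.57% for Hsd17b4, which alone turned above 1 under some other scalings, to 55.2% for Vnn1. The members together took 1.57% of the reads in control and 1.30% in OTD. The log2 ratio (pseudocount 1) had a median of −0.30 over the 35, beside −0.0063 over the 7602 genes with a mean level of at least 10, which are called measured. Of those measured genes, 51.6% lay below 0. The members are mostly abundant, and among the 1486 genes with a mean level of at least 100 the median was −0.041 and 60.8% lay below 0. All 35 members were measured, the lowest mean level being that of Vnn1. Hsd17b4 had a log2 ratio of 0.0031 when the libraries were set to the same total and 0.021 when the ribosomal RNA precursor Rn45s (1.47% of the control signal, 2.66% of OTD) was also left out. Those scalings added 0.055 and 0.073 to the log2 ratio of every gene, and the median over the members was then −0.25 and −0.23, beside 0.047 and 0.065 over measured genes.

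**Figure D1:**
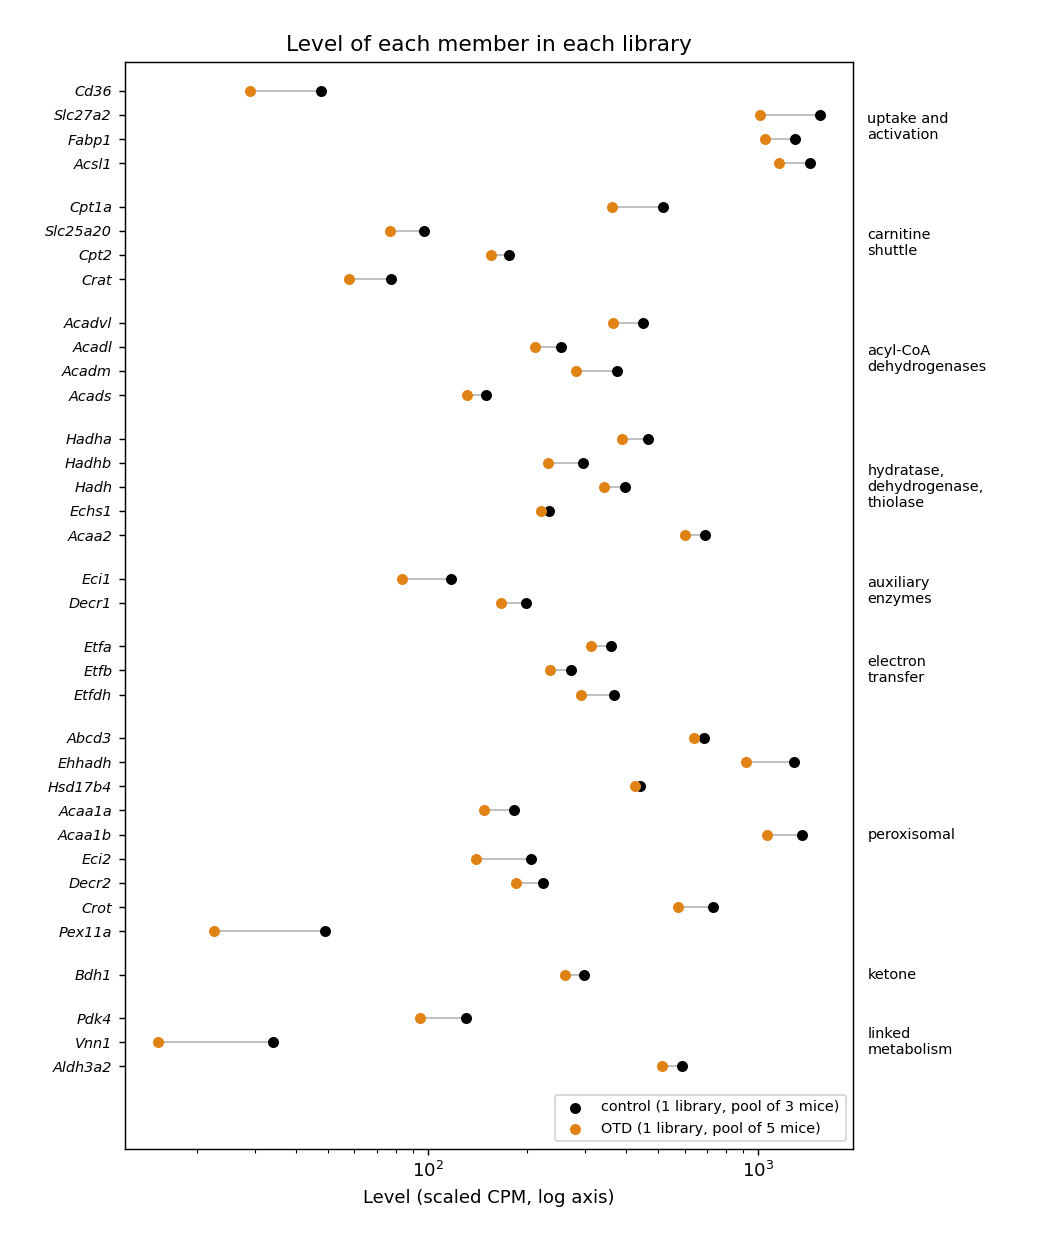
Level of each member in the control library (black) and the OTD library (orange), in scaled CPM on a log axis, grouped by role. At the deposited scaling the OTD point lies to the left of the control point for all 35 genes (for 34 at the same total).

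A gene was counted as lower or higher at 1.5-fold on the log2 scale with a pseudocount of 1. Of the 35 members, 4 were at least 1.5-fold lower (Vnn1, Pex11a, Cd36 and Slc27a2), beside 0.908% of measured genes and 1.21% of those with a mean of at least 100, and 0 were at least 1.5-fold higher, beside 1.51%. With a log2 bound of 0.32, 16 members were lower, beside 4.95% of measured genes and 5.65% of genes with a mean of at least 100, and 0 were higher, beside 7.1%. Vnn1 and Pex11a were at least 2-fold lower, beside 0.21% of measured genes. At the same total without Rn45s, 3 members were at least 1.5-fold lower and 0 higher, and of measured genes 43 were lower and 170 higher, in place of 69 and 115. With a pseudocount of 10, Pex11a (log2 ratio −0.85) and Vnn1 (−0.80) were short of 2-fold and Cd36 (−0.56) of 1.5-fold. From the lowest log2 ratio upward, Vnn1 stood at rank 12 of the 7602 measured genes, Pex11a at rank 13, Cd36 at rank 39 and Slc27a2 at rank 58. The other 31 members differed by less than 1.5-fold and in the same direction.

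At the deposited scaling, the 95% exact Clopper-Pearson interval on the split of reads lay wholly below a ratio of 1 for all 35 members. The same held for 19.6% of measured genes and 41.8% of those with a mean of at least 100. Setting the same total multiplies OTD levels by 1.04, which takes the upper bounds of Hsd17b4 (0.999) and Echs1 (0.995) above 1. Without Rn45s the factor is 1.05, and the upper bound of Abcd3 (0.957) passes 1 too. These intervals cover counting error only and say nothing of how mice, pools or preparations vary. In bulk liver, fewer cells of a type and less RNA per cell cannot be told apart.

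**Figure D2:**
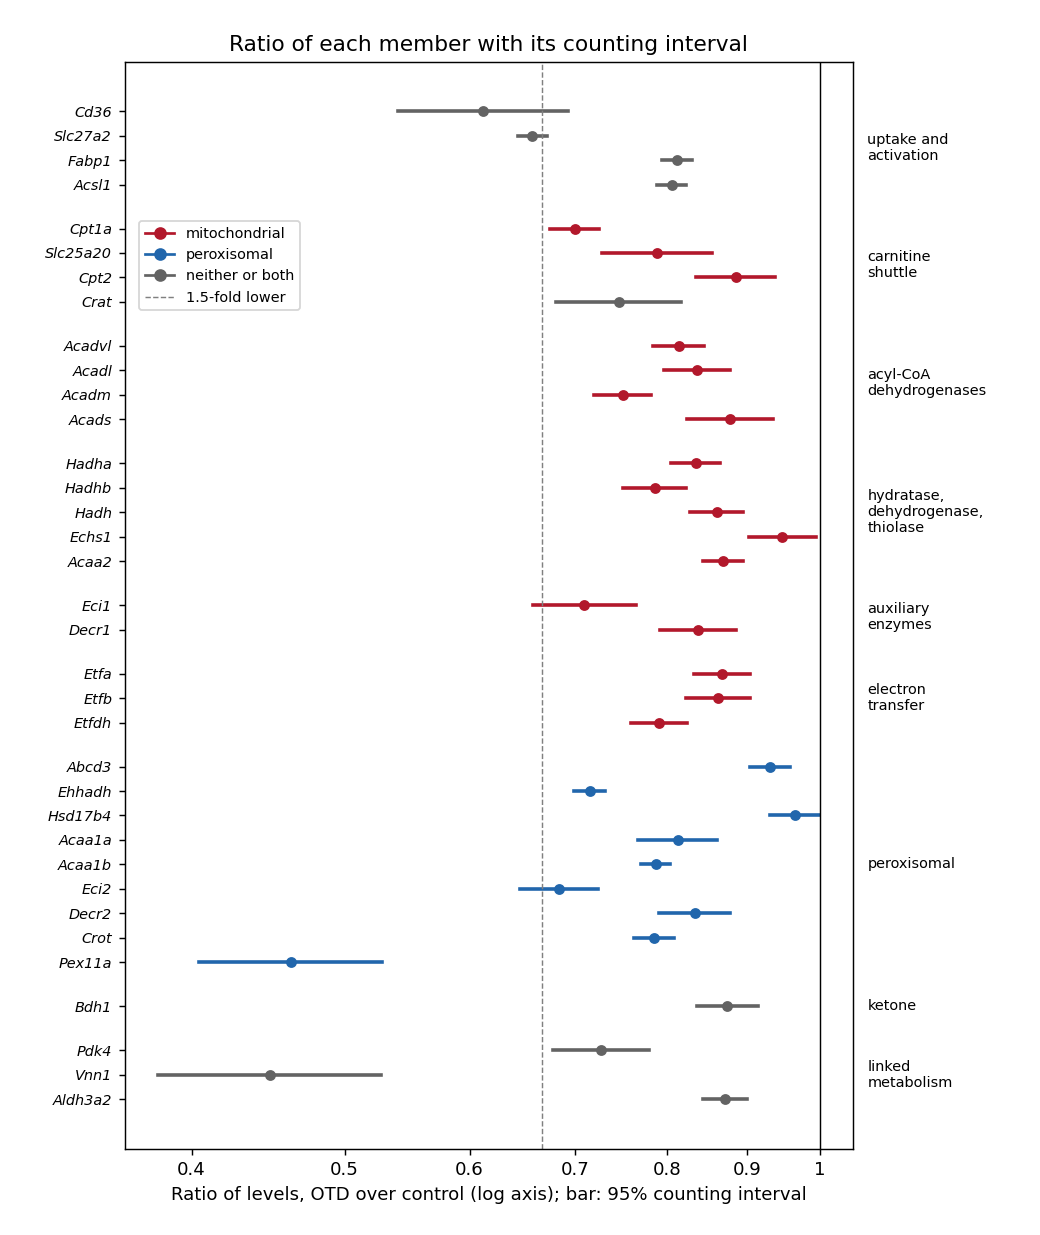
Ratio of levels, OTD over control, for each member on a log axis, with its 95% counting interval as a bar. Colors give the group by place and role, the solid line marks a ratio of 1 and the dashed line a level 1.5-fold lower. Pex11a and Vnn1 lie farthest to the left, and Hsd17b4 and Echs1 closest to 1.

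The promoters of the members were also described, and a link of their letters to the ratios was not tested. PPAR-alpha pairs with RXR on 2 copies of the half-site AGGTCA that follow each other with 1 base between. The table of RefSeq promoters (GRCm38.p6, 250 bases before and 50 after each start) held 33 promoters of 30 members. Acaa2, Crat, Decr1, Hsd17b4 and Vnn1 had no entry. The half-site AGGTCA, searched on both strands, occurred in 7 of the 33 member promoters (21.2%), in 16.3% of all 32851 promoters and in 13.2% of the 7523 promoters of measured genes. The full repeat AGGTCANAGGTCA occurred in 0 of 33, in 0.0396% of all and in 0.0532% of those of measured genes. The relaxed repeat AGGNCANAGGNCA, which overlaps both of the others, occurred in 1 of 33, the promoter of Fabp1, in 0.381% of all and in 0.332% of those of measured genes. These matches are letters in a short window and no evidence of binding, and no match says only that the letters are not in that window.

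The promoter of Fabp1, the liver fatty acid binding protein, is shown for its relaxed repeat, read here from the opposite strand as TGACCTATGGCCT, whose first base lies 67 bases before the start. The promoters of the members past 1.5-fold with an entry follow. Each is the 250 bases before the start, 5′ to 3′ on the gene's strand (GRCm38.p6), with half-sites and the repeat in capitals. The start is that of the RefSeq entry and need not be the outer end of the gene. The windows of Cd36 and Slc27a2 lie inside the gene bounds of GENCODE M21 (17781690 to 17888801 for Cd36, from 126552407 for Slc27a2). The Fabp1 window runs past the annotated gene start at 71199827, so its half-site nearest the RefSeq start lies within the annotated gene. Fabp1 lies on the plus strand at chr6:71199629-71199878, Pex11a on the minus strand at chr7:79743132-79743381, Slc27a2 on the plus strand at chr2:126552774-126553023 and Cd36 on the minus strand at chr5:17835897-17836146.
Fabp1: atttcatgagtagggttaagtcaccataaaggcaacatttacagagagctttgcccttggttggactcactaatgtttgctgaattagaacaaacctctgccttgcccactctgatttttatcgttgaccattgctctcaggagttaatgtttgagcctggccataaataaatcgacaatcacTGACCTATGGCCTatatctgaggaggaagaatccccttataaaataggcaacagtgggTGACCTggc
Pex11a: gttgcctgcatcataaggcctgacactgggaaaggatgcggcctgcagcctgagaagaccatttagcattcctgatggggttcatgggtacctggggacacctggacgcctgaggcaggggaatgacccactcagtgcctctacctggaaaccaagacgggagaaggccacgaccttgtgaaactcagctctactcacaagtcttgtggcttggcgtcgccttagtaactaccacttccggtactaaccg
Slc27a2: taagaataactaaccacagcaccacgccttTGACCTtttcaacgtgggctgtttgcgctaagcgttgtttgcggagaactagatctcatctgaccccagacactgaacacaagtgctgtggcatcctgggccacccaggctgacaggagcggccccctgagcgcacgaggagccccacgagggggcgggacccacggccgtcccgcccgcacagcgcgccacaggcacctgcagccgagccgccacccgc
Cd36: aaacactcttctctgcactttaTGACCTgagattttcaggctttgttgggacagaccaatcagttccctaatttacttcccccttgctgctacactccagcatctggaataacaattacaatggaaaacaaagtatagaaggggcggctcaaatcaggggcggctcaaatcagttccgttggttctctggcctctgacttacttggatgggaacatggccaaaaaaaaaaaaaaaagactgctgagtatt

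Fabp1 held the half-site again 9 bases before the start, Slc27a2 and Cd36 held it once each, and the Pex11a window held none. The other member promoters with a half-site are shown as short windows around it, again in capitals, to show the letters beside it. The half-site of Cpt1a lies inside the annotated gene, which starts at 3322334 on the plus strand.
Cpt1a, first base 94 before the start: ttccttacTGACCTcctccccg
Acadm, first base 249 before the start: gTGACCTtcgggctc
Acadvl, first base 87 before the start: atcaccctAGGTCAggtagaat
Echs1, first base 83 before the start: gcccgctcAGGTCAcgggtcca

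The 4 genes of uptake and activation had a median log2 ratio of −0.46, and 2 of them were past 1.5-fold. Cd36, a membrane receptor that takes up long-chain fatty acids, had 632 control reads and 435 OTD reads, for levels of 47.5 and 29.1. The ratio was 0.612 (0.540 to 0.693), or 1.63-fold lower, and it was the least expressed member per kilobase of transcript, at 13.97 per kb in control. Cd36 is also known from macrophages, endothelium and adipocytes. All 6 measured Kupffer cell markers lay below 0 as well, with a summed level over 8 markers of 349.9 in control and 325.0 in OTD, and the 6 sinusoidal endothelial markers summed to 389.5 and 356.4. Both sums differed by less than Cd36 did, and their part in its ratio was not tested. Of the 6 adipocyte markers, Adipoq, Lep, Cfd and Retn were not among the listed genes. Plin1 had 2 control reads and 0 OTD reads, and Lipe had 106 and 134, a ratio of 1.12 (0.865 to 1.46), so that the summed level was 8.11 and 8.95.

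Slc27a2 encodes FATP2, a very long-chain acyl-CoA synthetase and fatty acid transporter of the endoplasmic reticulum and peroxisome. It stood at 1541 in control and 1013 in OTD, a ratio of 0.657 (0.644 to 0.671), or 1.52-fold lower. Set to the same total, its log2 ratio was −0.55 in place of −0.60, short of 1.5-fold, and −0.53 without Rn45s. Fabp1, the cytosolic carrier of long-chain fatty acids, was the most abundant member per kilobase (2341 per kb in control) and stood at 1295 and 1051, a ratio of 0.812 (0.794 to 0.829). Acsl1, the main long-chain acyl-CoA synthetase of liver, stood at 1438 and 1159, a ratio of 0.806 (0.789 to 0.822). Acsl1 and Fabp1 had overlapping intervals, and both lay closer to 1 than Cd36 and Slc27a2.

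In the carnitine shuttle, the first enzyme showed the largest difference. Cpt1a, the outer-membrane carnitine palmitoyltransferase that malonyl-CoA inhibits and that limits the rate of entry, stood at 517.6 in control and 362.0 in OTD, a ratio of 0.699 (0.675 to 0.725), or 1.43-fold lower. Slc25a20, which carries acylcarnitine across the inner membrane, stood at 97.5 and 76.9, a ratio of 0.788 (0.728 to 0.854). Cpt2, which returns the acyl group to coenzyme A in the matrix, stood at 176.3 and 156.0, a ratio of 0.885 (0.835 to 0.937), and its interval did not overlap that of Cpt1a. Crat, the acetyltransferase for short acyl groups in mitochondria and peroxisomes, stood at 77.5 and 57.8, a ratio of 0.746 (0.681 to 0.817). Its interval overlapped that of Cpt1a, so counting error does not separate these genes. The 4 genes had a median log2 ratio of −0.38.

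The acyl-CoA dehydrogenases open each mitochondrial cycle and differ in the chain length that they prefer. Acadm, the medium-chain enzyme, had the lowest ratio, 0.750 (0.720 to 0.782), and stood at 374.7 in the control pool against 281.1 in the OTD pool. Acadvl, the very long-chain enzyme and the most abundant of the 4 per kilobase, stood at 447.7 and 364.5, a ratio of 0.814 (0.785 to 0.845). Acadl, the long-chain enzyme, stood at 253.6 and 212.0, a ratio of 0.836 (0.796 to 0.878). The interval of Acadm overlapped that of neither Acadvl nor Acadl. Acads, the short-chain enzyme, stood at 149.7 and 131.3, a ratio of 0.877 (0.824 to 0.934) that overlapped both Acadvl and Acadl. The ratios did not follow the order of chain length. The exons of Acadvl share 42.9% of their bases with those of Dvl2 on the other strand, which stood at only 2.93 and 4.88.

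The 5 enzymes of the later steps had a median log2 ratio of −0.22, beside −0.28 for the acyl-CoA dehydrogenases, and single members of these groups overlapped. Hadha and Hadhb encode the alpha and beta subunits of the trifunctional protein, which carries out the last 3 steps on long chains. They are neighbours on chromosome 5 head to head, with annotated starts 86 bases apart in GRCm38. Hadha stood at 464.9 in control and 388.0 in OTD, a ratio of 0.835 (0.805 to 0.865), and Hadhb at 295.0 and 231.8, a ratio of 0.786 (0.751 to 0.823). The intervals of the pair overlapped. Of the 50-base stretches of Hadhb, 62.4% also occur in other annotated transcripts, mostly in Gm13910, so its ratio is less certain than the interval.

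Hadh, the dehydrogenase for short and medium hydroxyacyl chains, stood at 397.2 and 341.8, a ratio of 0.861 (0.828 to 0.894). Acaa2, the mitochondrial thiolase and the most abundant of the 5 per kilobase, stood at 693.6 and 602.3, a ratio of 0.868 (0.843 to 0.894). Echs1, the short-chain enoyl-CoA hydratase, stood at 232.6 and 220.3, a ratio of 0.947 (0.902 to 0.995). Echs1 was the mitochondrial member closest to no difference.

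Unsaturated chains need auxiliary enzymes. Eci1, the mitochondrial enoyl-CoA isomerase, stood at 117.9 in control and 83.6 in OTD, a ratio of 0.709 (0.658 to 0.765), or 1.41-fold lower. Decr1, the mitochondrial dienoyl-CoA reductase, stood at 199.0 and 166.7, a ratio of 0.837 (0.793 to 0.885). Eci1 and Cpt1a were the mitochondrial members with the lowest ratios, and their intervals overlapped.

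Electrons of the acyl-CoA dehydrogenases pass to the electron transfer flavoprotein, a dimer of the products of Etfa and Etfb, and from it to ubiquinone through the product of Etfdh. Etfa stood at 360.1 in control and 312.3 in OTD, a ratio of 0.867 (0.833 to 0.903). Etfb stood at 272.0 and 234.4, a ratio of 0.862 (0.823 to 0.903). The subunits of the dimer thus differed from each other by less than their counting error. Etfdh stood at 368.1 and 291.1, a ratio of 0.791 (0.759 to 0.824), below both subunits, and its interval overlapped that of Etfb narrowly and not that of Etfa. Of the 50-base stretches of Etfb, 67.3% are shared with the annotated gene Gm45233.

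The peroxisomal members held both the ratio closest to 1 of all members and one of the 2 lowest. Pex11a, a membrane protein that acts in peroxisome elongation and division and is no enzyme of oxidation, had 650 control reads and 338 OTD reads, for levels of 48.8 and 22.6 and a ratio of 0.462 (0.404 to 0.528), or 2.16-fold lower. In GRCm38 it lies on chromosome 7 at 79735957 to 79743131 on the minus strand. Eci2, an enoyl-CoA isomerase reported in peroxisomes and mitochondria, stood at 205.1 and 140.2, a ratio of 0.684 (0.646 to 0.724), or 1.46-fold lower. Ehhadh, the bifunctional hydratase and dehydrogenase also called L-PBE, stood at 1286 and 919, a ratio of 0.715 (0.699 to 0.731), or 1.40-fold lower.

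Hsd17b4 encodes the other bifunctional enzyme, D-PBE, which handles branched chains and bile acid precursors. It stood at 439.6 and 424.0, a ratio of 0.964 (0.931 to 0.999), and its interval lay far above that of Ehhadh. The pair of bifunctional enzymes, which catalyse the same steps on different stereoisomers, thus had different ratios in these libraries. Abcd3, the membrane transporter PMP70, was also close to 1, with levels of 689.7 and 641.6 and a ratio of 0.930 (0.904 to 0.957).

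The peroxisomal thiolases Acaa1a and Acaa1b are close copies on chromosome 9, at 119339676 to 119350299 and at 119148023 to 119157093. Acaa1b, the most abundant peroxisomal member per kilobase (803.6 per kb in control), stood at 1357 in control and 1068 in OTD, a ratio of 0.787 (0.770 to 0.804). Acaa1a stood at 182.8 and 148.6, a ratio of 0.813 (0.767 to 0.861). They share 35.5% of the 50-base stretches of Acaa1b, so reads could be split between them. Summed, they had a ratio of 0.790 (0.774 to 0.806), and Acaa1b took 88.1% of the sum in control and 87.8% in OTD.

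Crot, which makes carnitine esters of the shortened chains for export to mitochondria, stood at 731.5 and 574.5, a ratio of 0.785 (0.763 to 0.809). Decr2, the peroxisomal dienoyl-CoA reductase, stood at 223.0 and 185.8, a ratio of 0.833 (0.791 to 0.878). The ratio of Decr2 was close to that of its mitochondrial counterpart Decr1, with overlapping intervals, as were those of the isomerases Eci2 and Eci1. The thiolases of the organelles did differ beyond counting error, since the interval of Acaa1b lay below that of Acaa2, the mitochondrial enzyme, while that of Acaa1a overlapped it.

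The organelles were set against each other by their medians. The 17 mitochondrial members had a median log2 ratio of −0.26, with a range of −0.51 to −0.078, and the 9 peroxisomal members a median of −0.35, with a range of −1.08 to −0.052 that began at −0.55 without Pex11a. The peroxisomal minus the mitochondrial median came to −0.088, or −0.064 without Pex11a or without Eci2. All 17 mitochondrial members lay within the range of the peroxisomal ones, and 6 of the 9 peroxisomal members within that of the mitochondrial ones. With 1 library per group no test of the difference between organelles can be had. Of all measured genes, 8.85% lay at or below the mitochondrial median and 4.01% at or below the peroxisomal one. Mitochondrial members took 0.531% of the reads in control (0.527% to 0.535%) and 0.454% in OTD (0.451% to 0.458%). Peroxisomal members took 0.507% (0.503% to 0.510%) and 0.421% (0.417% to 0.424%).

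**Figure D3:**
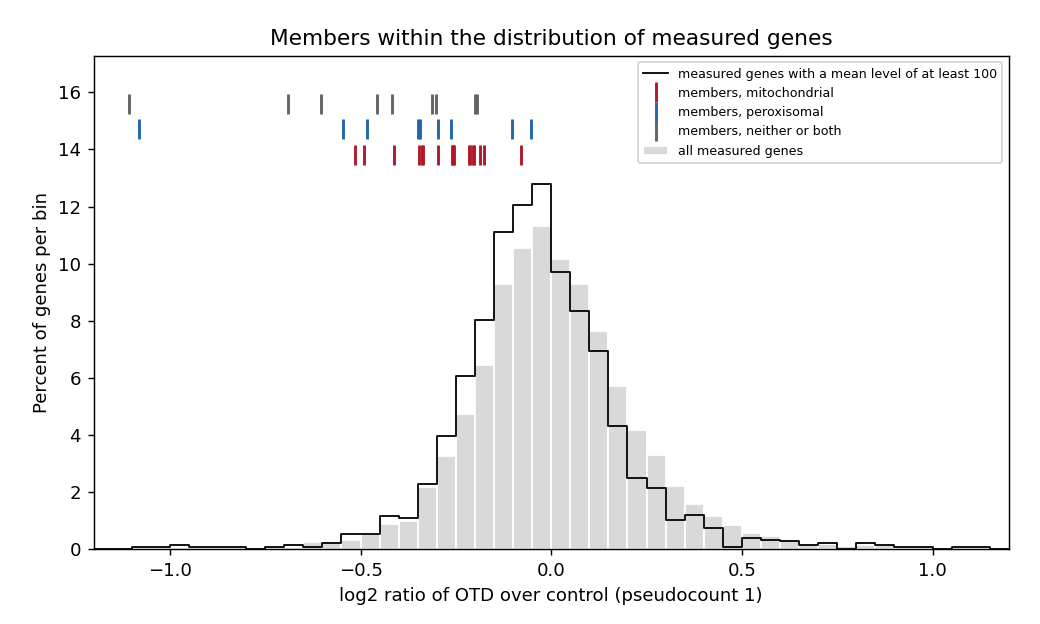
Distribution of the log2 ratio of OTD over control among measured genes (grey bars) and among those with a mean level of at least 100 (black line), as percent of genes in bins along the x axis. Vertical ticks above mark the single members by group of place and role. Of the measured genes, 16 lie outside the range drawn. All member ticks lie left of 0 at the deposited scaling (34 of 35 at the same total).

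Ketone bodies were represented among the members by Bdh1 alone, the mitochondrial dehydrogenase that reduces acetoacetate to 3-hydroxybutyrate. It stood at 298.3 in control and 260.8 in OTD, a ratio of 0.874 (0.836 to 0.914). Of the other ketone body genes listed, 6 of 7 measured ones lay below 0, with a median log2 ratio of −0.20 and 0 past 1.5-fold in either direction. Slc16a1, a transporter of lactate and ketone bodies, was named after its value was seen and stood at 182.0 and 124.5, a ratio of 0.684 (0.644 to 0.727).

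The last group holds genes linked to fatty acid use. Vnn1 encodes pantetheinase, which releases the coenzyme A precursor pantothenate, and had 452 control reads and 228 OTD reads, for levels of 34.0 and 15.2. The ratio of Vnn1 was 0.449 (0.381 to 0.527), or 2.23-fold lower, the lowest of the 35. The gene lies on chromosome 10 at 23894688 to 23905343. Pdk4, the kinase that switches off pyruvate dehydrogenase when fatty acids are burned, stood at 130.9 and 95.1, a ratio of 0.727 (0.677 to 0.780). Aldh3a2, the fatty aldehyde dehydrogenase, was the most abundant of this group per kilobase and stood at 587.7 and 511.9, a ratio of 0.871 (0.844 to 0.899). The group thus held the lowest of the 35 ratios, while Pdk4 and Aldh3a2 lay inside the range of the 17 mitochondrial members.

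Genes of wider acyl-CoA and lipid lists that hold no member did not share the single direction. These lists reach beyond fatty acid beta-oxidation and also hold, for example, Ivd, Pcca, Acacb and Baat. Their mixed direction therefore does not describe beta-oxidation alone. Of 24 measured genes of the wider mitochondrial acyl-CoA list, 15 lay below 0 and 9 above, with a median log2 ratio of −0.053. Only Slc22a5, the plasma membrane carnitine transporter OCTN2, was past 1.5-fold, with levels of 66.1 and 41.9 and a ratio of 0.634 (0.571 to 0.703), though not past it at the same total without Rn45s. Acat1, the acetoacetyl-CoA thiolase and the most abundant of the list per kilobase, had a ratio of 0.872 (0.843 to 0.902). Of 30 measured genes of the wider peroxisomal lipid list, 21 lay below 0 and 9 above, with a median of −0.089 and 0 past 1.5-fold. Catalase (Cat), the most abundant of these per kilobase, was slightly higher in OTD, with levels of 2730 and 2863 and a ratio of 1.05 (1.03 to 1.06).

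Regulators of the pathway went both ways. Of 19 measured genes, 13 lay below 0 and 6 above, with a median log2 ratio of −0.13. Lpin1, a phosphatidate phosphatase and coactivator of PPAR-alpha, was past 1.5-fold, standing at 547.5 in the control pool against 362.2 in the OTD pool, a ratio of 0.662 (0.639 to 0.685), though not past it at the same total. Creb3l3, a liver transcription factor of fasting and the most abundant of the list per kilobase, stood at 291.9 and 237.7, a ratio of 0.814 (0.778 to 0.852). Ppara itself and Fgf21, a secreted target of PPAR-alpha, were named after their values were seen. Ppara stood at 381.1 and 321.0, a ratio of 0.842 (0.809 to 0.876). Fgf21 was under the level minimum, with 95 reads in control and 44 in OTD, a ratio of 0.412 (0.281 to 0.595). Ppard and Pparg, other receptors of the family, were also named after their values were seen, and only Ppard was higher beyond counting error. Ppard stood at 23.8 and 35.3, a ratio of 1.48 (1.29 to 1.71), and was past 1.5-fold higher at the same total, where 0 genes of the list were past it as lower. Pparg, under the level minimum, had 64 control reads and 90 OTD reads, with a counting interval of the ratio from 0.897 to 1.75, which spans 1.

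Genes of the same organelles outside fatty acid oxidation gave a further point of reference. Of 26 measured genes of the TCA cycle and pyruvate dehydrogenase, 17 lay below 0, with a median log2 ratio of −0.035. Of 21 genes of mitochondrial protein import, 15 lay below 0, with a median of −0.037, and of 19 genes of peroxisome assembly 10 did, with a median of −0.010. In all 3 lists 0 genes were past 1.5-fold in either direction. Their most abundant genes per kilobase were Pcx with a ratio of 0.961, Hspd1 with 1.01 and Pxmp2 with 0.990. The medians of these organelle lists lay close to 0, as did those of the wider acyl-CoA and lipid lists (−0.053 and −0.089). Those of the members were −0.26 and −0.35. Members and lists were chosen with earlier results of these data known, and the part of that choice in the contrast was not tested. Set to the same total, the medians of the 3 organelle lists turned to 0.020, 0.016 and 0.043. Those of the wider mitochondrial acyl-CoA list (0.0022) and of the periportal markers (0.0027) also turned above 0, beside −0.20 and −0.29 for the members.

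**Figure D4:**
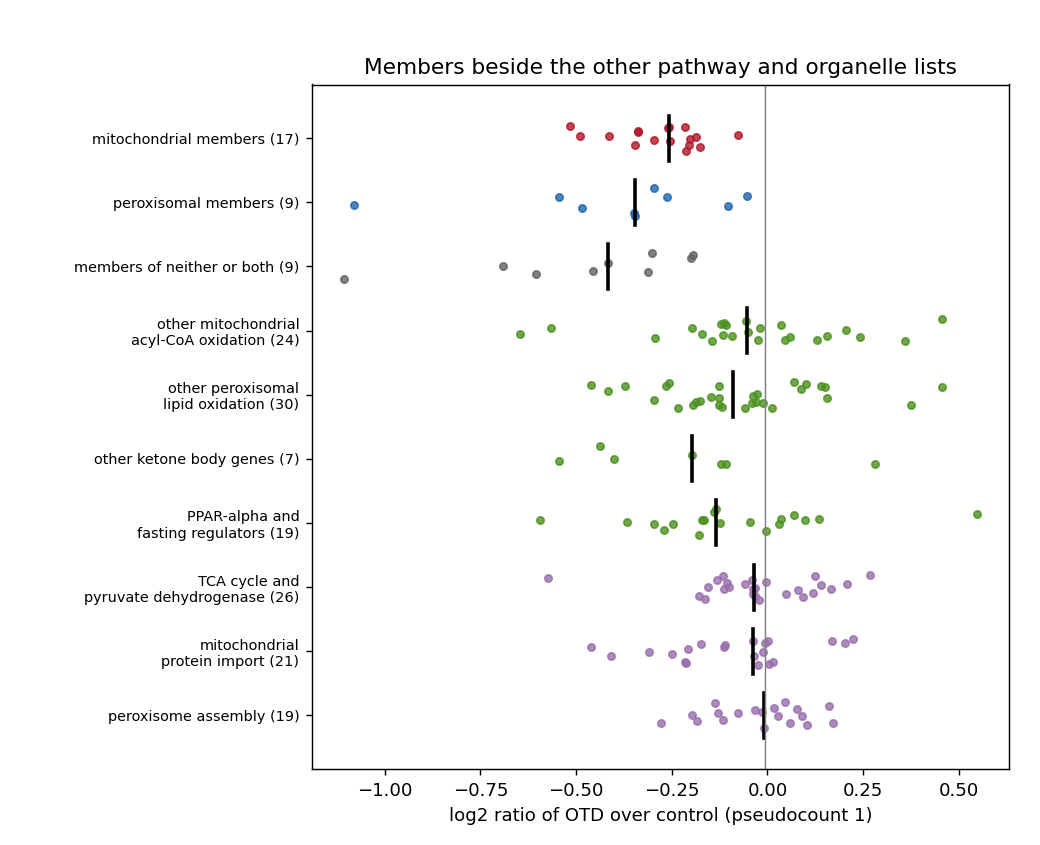
Log2 ratio of OTD over control for single measured genes (points) in the member groups, the other pathway lists and the organelle lists, with the number of genes in parentheses. Black bars are medians and the grey line is the median of all measured genes. The member groups lie wholly left of 0 at the deposited scaling, where all but Hsd17b4 stay at the same total, and the other lists lie on both sides.

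The library of each group carried the markers of hepatocytes, with Alb at 81661 in control and 69694 in OTD. The 7 hepatocyte markers summed to 101529 and 89390 and had a median log2 ratio of −0.12, with 5 below 0 and 2 above. Hnf4a was the lowest, at a ratio of 0.707 (0.688 to 0.725), while Cps1 (1.10, 1.09 to 1.11) and Tat (1.07, 1.05 to 1.09) were higher in OTD. Hnf4a is also known to act on genes of fatty acid metabolism. The 8 periportal markers summed to 8007 and 7527 and had a median of −0.053, and the 8 measured pericentral markers had a median of −0.39, with a sum over 9 of 7982 and 6534. Of those 8, 6 lay below 0, and Cyp1a2 (1.17, 1.13 to 1.21) and Rhbg (1.09, 0.864 to 1.37) above. The part of these marker levels in the members' ratios was not tested. Of 5 muscle markers, 0 were among the listed genes. The 3 measured stellate cell markers had a median of −0.15 and the 2 measured cholangiocyte markers of −0.17.

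**Figure D5:**
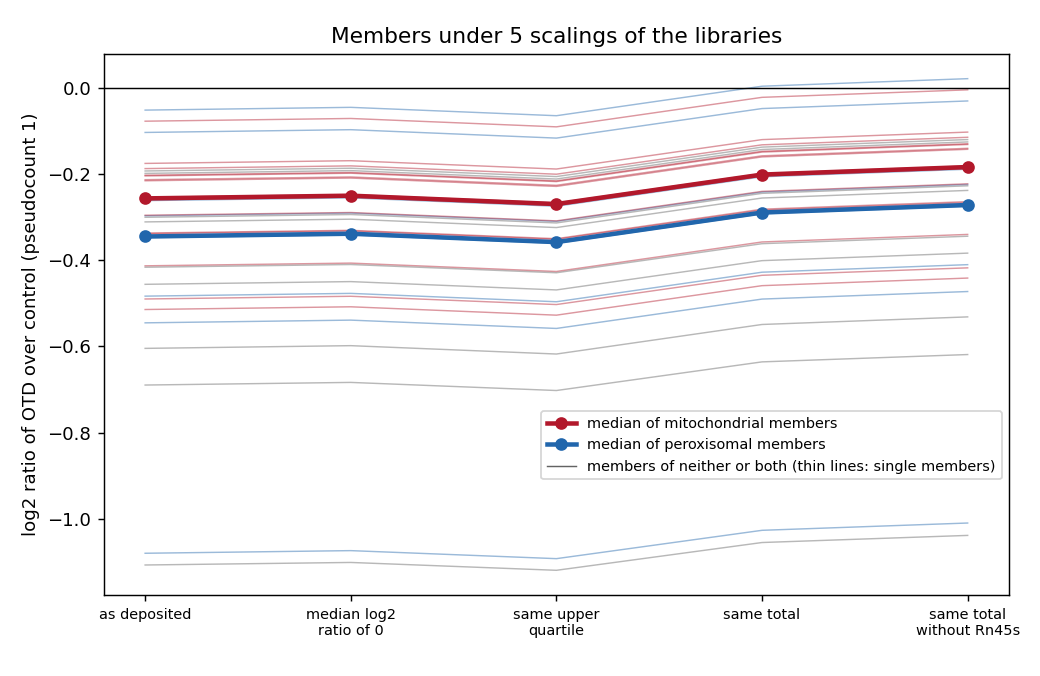
Log2 ratio of OTD over control for each member (thin lines) and the medians of the mitochondrial and peroxisomal members (thick lines with points) under 5 scalings of the libraries. The medians stay between −0.36 and −0.18, and Hsd17b4 alone crosses 0.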

How the data were processed

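The deposited table gave 1 normalized signal per gene symbol and pooled library. The build mm10 and the tools edgeR, RSEM, Bowtie2 and Trimmomatic 0.38 were named without roles, per the submitters' processing notes. Which annotation the authors used, and whether counting was stranded, is not given in the sources used here. Libraries were made from 200 ng of ribosome-depleted RNA, per the labels' protocols. All values (100%, tolerance 1e-06) were whole multiples of 1 read's value, so whole reads were recovered, and 3 reads equal 0.225 (control) or 0.200 (OTD) on the deposited signal scale. The columns equal CPM divided by 0.981 for control and 1.02 for OTD. A count test could not be fitted, because 1 library per group leaves no residual degrees of freedom.

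Log2 ratios used a pseudocount of 1, which understates low genes, and a mean level of at least 10. Ratios of levels had none, with 95% exact Clopper-Pearson intervals. Members, lists and thresholds were chosen with earlier results of these data known. Values are given for all 35 members. From other lists, genes past 1.5-fold and the most abundant per kilobase are named. Some genes that this takes in are not reported here. Gene positions, lengths (longest transcript) and shared 50-base stretches came from GENCODE M21 (GRCm38). Alternatives were other pseudocounts, scalings, level filters and bounds, and the peroxisomal list without Eci2, without Pex11a or with Acaa1a and Acaa1b summed. No gene was moved to another organelle. The computations were tested on simulated reads. Python 3.11.15, numpy, pandas 2.3.3 and scipy 1.17.1 were used. Protein sequences were not analysed here.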

Additional observations from a re-analysis of the deposited data

How the results depend on the processing

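No paired analysis was possible because each group had 1 library. The medians and their difference kept their sign under every alternative run (pseudocounts of 0.5 and 10, 4 other scalings, no level filter, a mean of at least 50, and for the peroxisomal members without Eci2, without Pex11a and with Acaa1a and Acaa1b summed). The mitochondrial median ranged from −0.27 to −0.18, the latter at the same total without Rn45s. The peroxisomal median ranged from −0.36 to −0.27, with −0.29 at the same total and −0.27 without Rn45s, and the difference from −0.095 to −0.064. Members at least 1.5-fold lower numbered 4. With a log2 bound of 0.32, 16 members were lower, and at 2-fold 2 members were lower, since the bound itself differs. At a mean of at least 50 the number was 1, since 3 of the 4 genes fall under that level. Members at least 1.5-fold higher numbered 0 under each alternative. Of 210 single-member values under other pseudocounts and scalings, 172 stayed within the counting interval, 36 moved beyond it with the same sign and 2 changed sign, both of Hsd17b4 (0.0031 at the same total, 0.021 without Rn45s). Cd36 had a log2 ratio of −0.56 with a pseudocount of 10, short of 1.5-fold. Depth limits Vnn1, Pex11a and Cd36 most among the members, with 228 to 650 reads per library.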
